A study of Mus musculus with 6 samples.

Results

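The ileum of preweaned mice carrying a humanized gnotobiotic microbiota was compared with the ileum of preweaned mice raised conventionally in specific pathogen free (SPF) housing. Both samples came from C57BL/6J mice, and together they are 2 of the 6 samples of the series, taken by their labels. The remaining 4 samples, 2 germ-free preweaned, 1 germ-free postweaned and 1 SPF postweaned ileum of the same strain, served here only as yardsticks. Gnotobiotic mice live in isolators with a known set of microbes, and a humanized set is one derived from people. The sources used here give neither the makeup of the community nor the sex of the mice, nor whether several mice were pooled. An age of 3 weeks is named for the gnotobiotic mouse and for a germ-free mouse, and the SPF sample is called preweaned with no age, so age and microbiota cannot be told apart in this comparison. Total RNA (2.5 µg, integrity number at least 8) was amplified, labelled with the dye Cy5 and read on 3 Phalanx Mouse OneArray slides per sample.

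The ileum is the last stretch of the small intestine. In suckling rodents its enterocytes take up milk proteins whole by endocytosis and break them down in large lysosomes, and around weaning these cells are replaced by enterocytes with a mature brush border that digest sugars and peptides at their surface. Colonizing microbes are known to meet a mucosa of mucus-forming goblet cells, antimicrobial lectins, macrophages and lymphocytes, many of whose genes respond to cytokines such as interferon gamma.

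Levels are log2 of the quantile-normalized intensity plus an offset of 50, averaged over the arrays of a sample. A gene was compared where its probe was above background (detection p under 0.05 on at least 2 of 3 arrays) in either sample, which held for 10694 genes, 9576 of them above background in the humanized and 9071 in the SPF sample. Between 35.5% and 44.3% of the probes were detected on a humanized array and between 32.2% and 42.5% on an SPF array, and the SD of a gene between arrays had a median of 0.0727 and 0.130, respectively. The arrays fall into 2 series that carry different versions of the probe annotation, and the humanized sample shares its series with germ-free preweaned 2 while the other samples, SPF preweaned among them, form series 1. A further division sets the humanized and both germ-free preweaned samples against the other 3, and the 103 probes detected on every array of one side and on none of the other were left out. Microbiota, array series and this division cannot be told apart between the humanized and SPF samples. The Y-linked transcripts were present in both samples, for example Ddx3y at 9.52 and 9.17 and Uty at 8.46 and 9.05 in the humanized and SPF samples, respectively.

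The tissue label was checked against genes of the ileum and of the upper intestine. Fabp6, the ileal bile acid binding protein, read 6.91, 6.63 and 6.72 on the humanized arrays, where it was not detected, against 11.73, 11.78 and 11.82 on the SPF arrays. It stood at 8.02 and 11.34 in the germ-free preweaned samples and at 13.26 and 14.22 in the postweaned SPF and germ-free samples, so the humanized sample held the lowest level of this defining ileal transcript among the 6 samples. Slc10a2, the ileal bile acid importer, was above background in neither sample and was not compared. Gata4, a transcription factor of the upper small intestine, lay at 10.58 in the humanized and 11.48 in the SPF sample. Of 16 genes listed as proximal small intestine 4 were 2-fold or more higher and 1 lower in the humanized sample, with a median difference of 0.03. The 1 lower gene was the phosphate transporter Slc34a2, at 5.66 against 13.04. Whether Slc34a2 marks the proximal intestine was not tested, so its lower level does not speak to the tissue label. Of all compared genes 16.8% were 2-fold or more higher and 15.7% lower. The position of the sampled segment along the intestine was not tested.

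Of the 10694 genes, 1796 (16.8%) were 2-fold or more higher and 1677 (15.7%) 2-fold or more lower in the humanized sample. With 1 sample a group these counts describe a pair of samples. The shares of 16.8% and 15.7% are the scale for the counts given below for each gene list. A limma fit of group means to all 6 samples, in which the lone samples are assumed to vary like the germ-free preweaned pair (1 residual degree of freedom), called 0 of 12114 genes (0%) at an adjusted p of 0.05. The smallest adjusted p was 0.513, with 1158 genes at an unadjusted p under 0.05 (1454 with limma's trend and robust options, which also called 0). The standard errors below come from that fit and had a median of 0.53. The arrays are technical repeats, and the 3 humanized arrays lay all above or all below the 3 SPF arrays for 81.7% of the genes.

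The germ-free preweaned pair, which differs by no treatment but crosses the same array series, gives a scale for these counts. Germ-free preweaned 2 was 2-fold or more higher than germ-free preweaned 1 for 1173 genes (11%) and lower for 1004 (9.39%). Taking the difference of that pair away from the humanized minus SPF difference, which makes the array series a block and leaves no degree of freedom for a test, kept 1105 genes (10.3%) at 2-fold or more higher and 1118 (10.5%) at 2-fold or more lower. This series-adjusted value is given below beside the list medians and beside many single genes. It takes away all that differs between the 2 germ-free preweaned samples, not the array series alone. In germ-free preweaned 1 and 2, for example, Y-linked Ddx3y stood at 7.82 and 9.84 and the suckling gene Meltf at 14.62 and 6.80. What part of such differences is due to the array series was not tested. Across the compared genes the humanized sample correlated with germ-free preweaned 2 at r = 0.980, with germ-free preweaned 1 at 0.863 and with SPF preweaned at 0.816, values over genes of samples that share or do not share an array series. Only 220 genes differed 2-fold or more between the humanized sample and germ-free preweaned 2.

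The SPF sample stood apart from all 3 other preweaned samples for more genes than the humanized sample did. However, the SPF sample is the only preweaned one on its side of the division, and the humanized sample shares its array series with germ-free preweaned 2. The part of the division and the series in the counts that follow was not tested. The SPF level lay 2-fold or more below the humanized and both germ-free preweaned levels for 614 genes (5.74%) and above them for 834 (7.8%). The humanized level was 2-fold or more above the SPF and both germ-free preweaned levels for 94 genes (0.879%) and below all of them for 17 (0.159%). For 316 genes that were higher and 247 that were lower, the humanized sample and germ-free preweaned 2 stood together against SPF and germ-free preweaned 1.

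**Figure D1:**
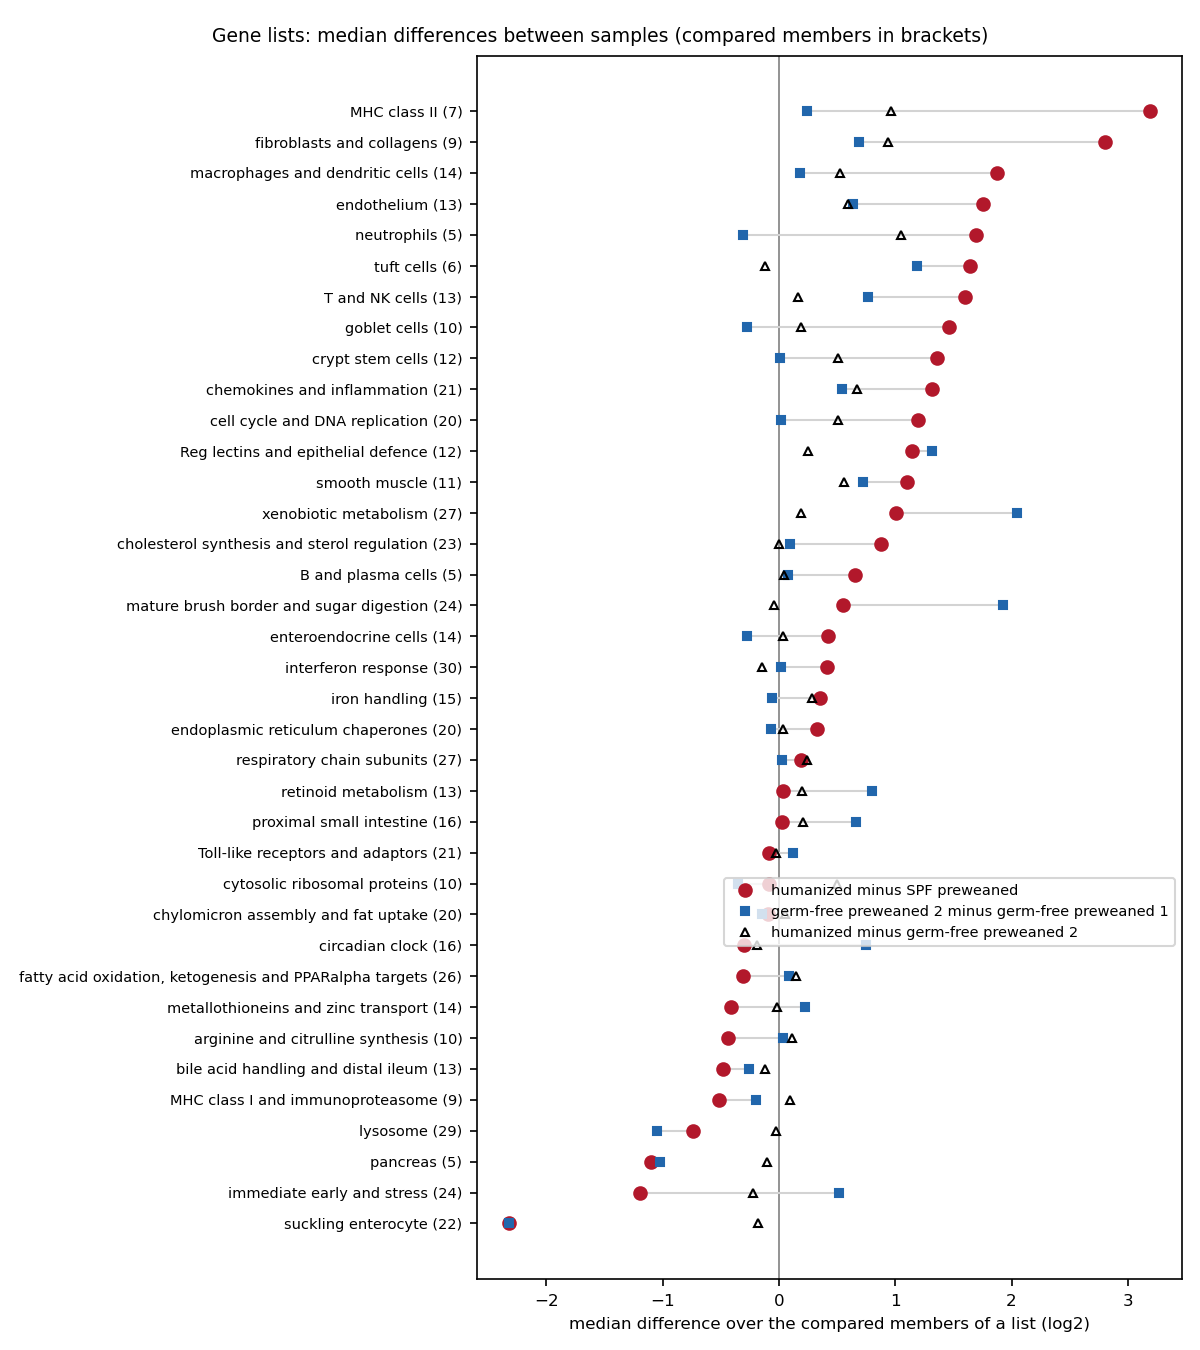
Median difference over the compared members of each gene list on the log2 scale (horizontal axis), for humanized minus SPF preweaned (circles), germ-free preweaned 2 minus germ-free preweaned 1 (squares) and humanized minus germ-free preweaned 2 (triangles). MHC class II has a median of 3.19 with the germ-free pair near 0, while the suckling enterocyte list has the same median of -2.32 in both comparisons that cross the array series.

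**Figure D2:**
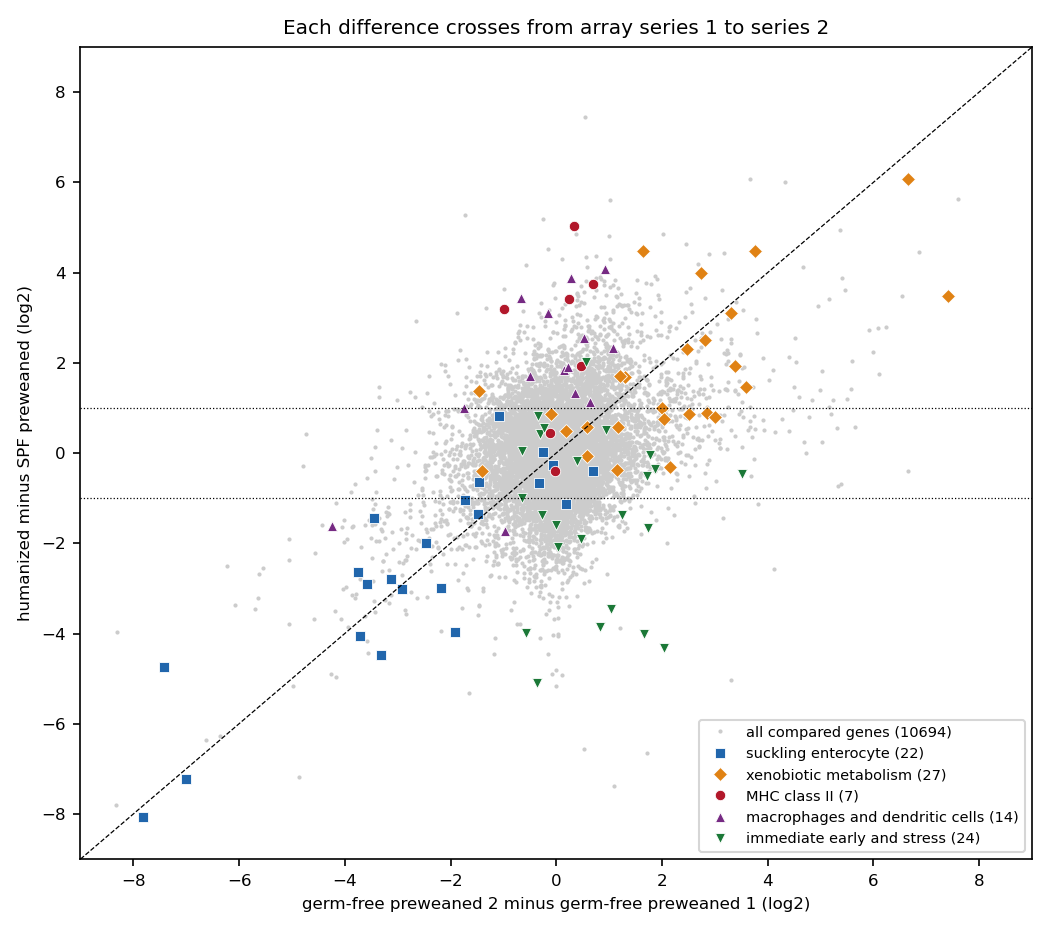
Each compared gene by its difference within the germ-free preweaned pair (horizontal axis, log2) and its difference between humanized and SPF preweaned (vertical axis, log2), with the line of equal differences dashed and 2-fold dotted. Of the suckling enterocyte genes, Meltf and Mamdc4 lie near the dashed line, while Folr1 lies 2.68 above it. The xenobiotic list has a median of 1.004 on the vertical and 2.04 on the horizontal axis. Of the 7 MHC class II genes 5 lie 2-fold or more above the dashed line, and all 7 are within 2-fold in the pair. Of the 24 immediate early genes 9 were 2-fold or more higher in germ-free preweaned 2.

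Genes of MHC class II, which present peptides of extracellular origin to CD4+ T cells, were among the most different groups. Of 7 compared members (of 9 on the array, from a list of 10), 5 were 2-fold or more higher and 0 lower in the humanized sample, and the median difference was 3.19, against 0.05 over all compared genes. The series-adjusted median was 3.06. With undetected genes set at their lower bound, as described for H2-Ab1, the median was 2.20. H2-Aa, the alpha chain of I-A, read 13.84, 13.86 and 13.98 on the humanized arrays and between 8.59 and 9.02 on the 3 SPF arrays. Its difference of 5.02 ± 0.50 (limma SE, adjusted p = 0.513) is 32.5-fold, and the series-adjusted difference was 4.70. H2-Eb1, the beta chain of I-E, was 13.4-fold higher, at 12.21 against 8.46.

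H2-Aa and H2-Eb1 were lowest in the SPF preweaned sample among the 6. In the germ-free preweaned pair H2-Aa stood at 12.55 and 12.88, nearer to the humanized level, and it reached 14.25 in the postweaned SPF and 10.39 in the postweaned germ-free sample. H2-Ab1, the beta chain of I-A, was detected on none of the SPF arrays and was at least 6.02-fold higher in the humanized sample. A fold marked "at least" sets the bright sample against the lowest detected signal of the dim arrays. Cd74, the invariant chain that escorts class II molecules, was at least 4.60-fold higher by its brightest probe (9.60 against 6.41), while its 3 probes gave differences from -0.63 to 3.19. H2-DMb1, a chain of the peptide-loading factor H2-M chosen after its values were seen, was 3.83-fold higher, but its SPF arrays spread from 7.53 to 9.33. None of the 7 genes was ordered by the division of the samples. Genes of MHC class I and the immunoproteasome, which supply peptides to CD8+ T cells, showed no such shift: of 9 compared, 0 were 2-fold or more higher and 1 lower (median -0.51).

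The promoters of the class II genes are shown because their shared elements are known from textbooks: an X region that contains a cyclic AMP response element-like sequence and a Y box bound by NF-Y. The windows run from 250 bases before to 50 bases after the start in the RefSeq table of build GRCm38.p6, at chr17:34287774-34288073 on the minus strand for H2-Aa and chr17:34305617-34305916 on the plus strand for H2-Eb1. Capitals mark exact matches, on either strand, to the Y box CTGATTGG (which includes a CCAAT box on the other strand) and to the cyclic AMP response element TGACGTCA.
H2-Aa: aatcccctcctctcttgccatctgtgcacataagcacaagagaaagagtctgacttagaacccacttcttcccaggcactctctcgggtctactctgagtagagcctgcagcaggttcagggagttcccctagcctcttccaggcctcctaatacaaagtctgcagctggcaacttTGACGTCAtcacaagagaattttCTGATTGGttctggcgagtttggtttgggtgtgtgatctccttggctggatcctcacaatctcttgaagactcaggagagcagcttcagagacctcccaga
H2-Eb1: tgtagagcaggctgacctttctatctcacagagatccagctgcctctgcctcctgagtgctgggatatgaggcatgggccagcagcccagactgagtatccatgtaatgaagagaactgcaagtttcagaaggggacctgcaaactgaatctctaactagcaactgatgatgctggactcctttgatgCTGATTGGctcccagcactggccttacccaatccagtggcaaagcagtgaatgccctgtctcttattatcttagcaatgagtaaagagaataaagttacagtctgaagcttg
The Y box letters were found in 3 of the 5 class II windows in the table (H2-Aa, H2-Eb1 and H2-Oa) and in 4.1% of 32851 promoter windows of the same length. H2-Oa, a chain of the H2-M inhibitor, was at 6.89 in the humanized and 7.30 in the SPF sample, and its value was not chosen by the naming rule.

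**Figure D3:**
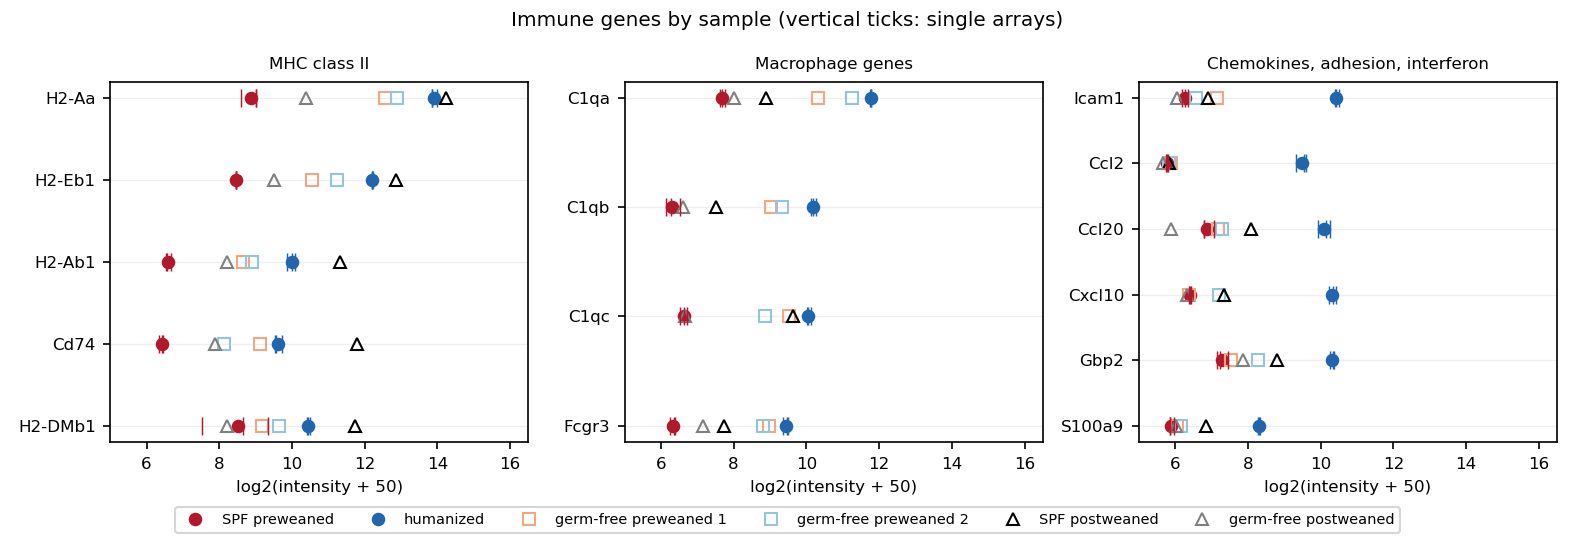
Levels (log2 of intensity plus 50) of MHC class II genes, macrophage genes and genes of chemokines, adhesion and the interferon response in the 6 samples, with ticks for single humanized and SPF preweaned arrays. The SPF preweaned sample is the lowest for H2-Aa and C1qa, and the humanized sample is the highest for Icam1, Ccl2, Ccl20, Cxcl10, Gbp2 and S100a9.

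Macrophage and dendritic cell markers were higher in the humanized sample for 12 of 14 compared genes and lower for 2, each by 2-fold or more, with a median of 1.87 (series-adjusted 2.11, at bounds 0.89). In bulk tissue, fewer cells of a type and less RNA per cell cannot be told apart. C1qa, a chain of the complement starter C1q that tissue macrophages make, read 11.74, 11.77 and 11.79 on the humanized and 7.68, 7.63 and 7.77 on the SPF arrays, a 16.9-fold difference. C1qb was at least 6.89-fold, C1qc at least 6.31-fold and Fcgr3, an IgG receptor, at least 4.12-fold higher. Germ-free preweaned levels of C1qa were 10.32 and 11.25, again on the humanized side. For 7 of the 14 genes all 3 samples on the humanized side of the division lay above (or below) the other 3, against 37% of all compared genes. Genes with a 2-fold difference were ordered in this way more often: 918 of the 1796 higher and 1012 of the 1677 lower ones. These counts are the scale for the later counts of genes ordered by the division.

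The exceptions were Ctss, cathepsin S, which trims the invariant chain, at 11.04 against 12.76, and Csf1r, the receptor for the macrophage growth factor CSF1, at 9.29 against 10.90. Both were chosen after their values were seen. Csf1r was 12.85 and 8.61 in the germ-free pair, and its series-adjusted difference turned from -1.62 to 2.62. Neutrophil markers were mostly at background, with 5 of 11 on the array compared, of which 3 were 2-fold or more higher and 1 lower (median 1.70, series-adjusted 1.30, at bounds 0.19). S100a9, a subunit of calprotectin, lay at 8.30 against 5.89, and Lcn2, lipocalin 2, at 7.58 against 5.89. No SPF array detected either gene, so they were at least 1.86-fold and at least 1.14-fold higher, respectively. By their levels both were 2-fold or more above both germ-free preweaned samples. Camp, the antimicrobial peptide cathelicidin, was lower at 6.53 against 7.56, with 8.08 and 6.41 in the germ-free pair and a series-adjusted difference of 0.63.

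Genes of connective tissue, vessels and muscle were higher in the humanized sample. Of 9 fibroblast and collagen genes 8 were 2-fold or more higher and 0 lower (median 2.80, series-adjusted 1.88, at bounds 1.93). Sparc, a matrix-binding protein, read 10.80, 10.81 and 10.82 on the humanized and 6.32, 6.74 and 6.45 on the SPF arrays and was at least 10.6-fold higher. Dcn, decorin, was 10.8-fold higher, with differences of 2.19 and 3.44 on its 2 probes, Pdgfrb, a receptor of mural and mesenchymal cells, at least 3.85-fold and Col6a1, a collagen VI chain, 7.34-fold. Col1a1, Col3a1 and Pdgfra were above background in neither sample and were not compared.

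Among 13 endothelial genes 9 were 2-fold or more higher and 0 lower (median 1.76, series-adjusted 1.65, at bounds 0.99). Emcn, endomucin, was at least 3.99-fold, Cdh5, VE-cadherin, at least 4.17-fold, Egfl7 at least 6.35-fold and Vwf, von Willebrand factor, at least 2.82-fold higher. Pecam1, which was chosen after its values were seen, was at least 1.95-fold higher, and its 3 probes differed by 1.52 to 1.59. Smooth muscle genes were less even, with 6 of 11 higher and 1 lower (median 1.10, series-adjusted 0.28, at bounds 0.50). Myh11, smooth muscle myosin heavy chain, read 12.63, 12.60 and 12.59 on the humanized and 6.29, 6.81 and 6.49 on the SPF arrays, at least 36.9-fold. It was 7.44 and 11.10 in the germ-free pair, so the difference with the series as a block was 2.41. Myl9, a myosin light chain, was at least 8.39-fold higher. The share of muscle and submucosa in each piece of tissue was not tested, and 6 of the 9 fibroblast, 7 of the 13 endothelial and 4 of the 11 muscle genes were ordered by the division. Among blood cell genes, 3 of which were compared, Alas2, the heme synthesis enzyme of red cells, lay at 10.38 against 7.55 and Pf4, platelet factor 4, at 8.66 against 5.95, while Ahsp, a hemoglobin chaperone chosen after its values were seen, was at 7.46 against 8.27. Kit, the receptor of mast cells and interstitial cells of Cajal, stood at 8.92 against 6.43, whereas the other compared members of the mast cell and eosinophil list were 2-fold or more lower, Tpsb2, a mast cell tryptase, at 7.60 against 9.43 and Epx, eosinophil peroxidase, at 6.46 against 8.29.

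Of 25 markers of T and NK cells on the array 13 were compared. Of these, 9 were 2-fold or more higher and 2 lower (median 1.60, series-adjusted 0.81, at bounds 0.43). The lowest difference was -1.19. With the series as a block 6 of the higher and 2 of the lower genes stayed 2-fold or more apart in the same direction. All genes named below are among the higher ones. The widest differences were those of granzymes, proteases of cytotoxic cells that include the lymphocytes within the epithelium. Gzma, granzyme A, read 11.77, 11.84 and 11.82 on the humanized and 7.42, 7.49 and 7.29 on the SPF arrays. Gzmb, granzyme B, read 10.25, 10.27 and 10.30 against 6.01, 6.16 and 6.09. The arrays did not overlap for either gene, which held for 81.7% of all compared genes. Gzma was 21.3-fold and Gzmb at least 7.33-fold higher. Their germ-free levels differed as well, from 8.19 to 11.07 for Gzma, and with the series as a block the difference for Gzma came to 1.53. Ccl5 and Xcl1, chemokines made by activated T and NK cells, were at least 3.11-fold and at least 5.12-fold higher, and Xcl1 (9.75) was also 2-fold or more above both germ-free preweaned samples (6.97 and 8.13).

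Of 5 compared B and plasma cell genes 2 were 2-fold or more higher and 2 lower (median 0.65, series-adjusted -0.96, at bounds -0.24). Jchain, the joining chain of secreted IgA, lay at 7.16 in the humanized sample and 5.65 in the SPF sample, where no array detected it. With the SPF sample set at its bound the Jchain difference was -0.24, so a higher level in the humanized sample is not shown. Xbp1, which secretory cells of many kinds use, lay at 14.53 against 13.08. On the other side, Cd79a, a signalling chain of the B cell receptor, was lower at 7.44 against 8.87, and Mzb1, a plasma cell chaperone, was at least 1.70-fold lower. The defining B cell genes Ms4a1 and Pax5 were above background in neither sample.

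Chemokines and other inflammatory genes were higher for 12 of 21 compared genes and lower for 2 (median 1.32, series-adjusted 0.73, at bounds 0.81). This list held 6 genes at which the humanized sample stood 2-fold or more above the SPF and both germ-free preweaned samples: Icam1, Ccl2, Ccl20, Nos2, Il1b and Ccl4. Icam1, the adhesion molecule that arrests leukocytes, averaged 10.43 on the humanized arrays (SD 0.062, 3 arrays) and read 6.37, 6.26 and 6.19 on the SPF arrays. It was 7.14 and 6.58 in the germ-free preweaned and 6.06 and 6.91 in the germ-free and SPF postweaned samples. The difference from SPF of 4.16 ± 0.56 (limma SE, adjusted p = 0.513) was at least 8.19-fold.

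Ccl2, which draws monocytes, read 9.60, 9.32 and 9.55 against 5.81, 5.78 and 5.73 and was at least 4.25-fold higher. In the 5 samples other than the humanized one it lay between 5.67 and 5.88. Ccl20, the epithelial chemokine that attracts cells bearing CCR6, was at least 6.53-fold higher (10.11 against 6.88). Nos2, inducible nitric oxide synthase, Il1b, interleukin 1 beta, and Ccl4 were chosen after their values were seen, and they lay at 8.00, 9.05 and 8.21 in the humanized against 5.92, 7.73 and 6.61 in the SPF sample. No SPF preweaned array detected Nos2 or Ccl4, which were at least 1.51-fold and at least 1.75-fold higher. In the postweaned SPF sample Nos2 and Ccl4 were higher still, at 11.06 and 11.13, and Il1b was at 9.26.

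Genes of the interferon response split into groups. Of 30 compared, 9 were 2-fold or more higher and 4 lower (median 0.42, series-adjusted 0.57, at bounds 0.34), where 16.8% and 15.7% of all genes were. Among those that were higher, Cxcl10, a chemokine for CXCR3-bearing T cells, read 10.33, 10.22 and 10.41 against 6.40, 6.38 and 6.45 and was at least 7.57-fold higher, with germ-free preweaned levels of 6.37 and 7.20. Gbp2, a guanylate-binding protein that interferon gamma induces, lay at 10.32 against 7.29 (8.18-fold), and both germ-free levels (7.53 and 8.28) were lower than the humanized one. Ido1, the tryptophan-degrading enzyme, was at least 4.39-fold higher than in SPF, but germ-free preweaned 2 held nearly as much (9.15 against 9.53), and the series-adjusted difference was 0.63.

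Lower in the humanized sample were Rsad2, or viperin, at 9.08 against 11.65, Ifit1, a sensor of viral RNA, at 10.34 against 12.69, and Irf1, an interferon-induced transcription factor, at 9.53 against 11.55. All were chosen after their values were seen. The germ-free pair differed widely for the antiviral genes, at 5.66 and 9.79 for Rsad2. Irf1 was more even, at 9.32 and 9.75, and lay above both in the SPF preweaned (11.55), SPF postweaned (11.56) and germ-free postweaned (10.51) samples, the far side of the division.

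Promoter windows of Ccl20 (chr1:83116516-83116815, plus strand) and Cxcl10 (chr5:92348840-92349139, minus strand) are shown because both genes are known targets of NF-kappa B and stood apart in the humanized sample. Capitals mark exact matches, on either strand, to the kappa B pattern GGGRNNYYCC. In it R is A or G, Y is C or T, and N is any base. In Cxcl10 a pair of overlapping matches forms 1 run.
Ccl20: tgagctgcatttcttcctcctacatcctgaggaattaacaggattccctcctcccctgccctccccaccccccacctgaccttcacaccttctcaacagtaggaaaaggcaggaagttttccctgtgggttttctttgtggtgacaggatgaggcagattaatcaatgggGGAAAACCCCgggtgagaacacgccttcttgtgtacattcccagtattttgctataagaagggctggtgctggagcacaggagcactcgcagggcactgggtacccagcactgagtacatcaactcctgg
Cxcl10: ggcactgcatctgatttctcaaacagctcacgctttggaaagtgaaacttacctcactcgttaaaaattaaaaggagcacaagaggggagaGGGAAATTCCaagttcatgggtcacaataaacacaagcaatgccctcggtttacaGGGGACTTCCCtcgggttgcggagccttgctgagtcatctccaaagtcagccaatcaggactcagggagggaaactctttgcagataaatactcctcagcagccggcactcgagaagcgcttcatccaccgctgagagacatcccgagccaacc
A kappa B match was present in 5 of the 15 windows found for the compared chemokine and inflammation genes and in 8.46% of all windows. The Icam1 window held no exact match, which says only that the letters of this pattern are not in that window. It did hold TGGAAATTCC, which departs from the pattern in the opening base only, and near matches were not searched for.

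Epithelial defence genes were higher for 8 of 12 compared members and lower for 1, with a median of 1.14. Their series-adjusted median was -0.24, since the germ-free pair differed by 1.32 in the median. Dmbt1, a mucosal scavenger that binds bacteria, stood clear of the pair: it read 13.94, 14.06 and 14.05 on the humanized and 11.51, 11.43 and 11.33 on the SPF arrays, and 11.03 and 11.53 in the germ-free preweaned samples. Its difference was 6.04-fold and the series-adjusted value 2.09. Ifitm3, an interferon-induced membrane protein, was 13.97-fold higher, at 11.34 against 7.53. Pigr, the receptor that carries IgA across the epithelium, was 7.88-fold higher than in SPF, but germ-free preweaned 2 reached 14.39 beside 14.67 in the humanized sample, and the series-adjusted difference was -0.28.

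The Reg3 lectins, antibacterial proteins known to increase with microbes, were examined although they fall outside the naming rule. Reg3g lay at 10.61 in the humanized and 9.15 in the SPF sample, Reg3b at 12.37 and 12.88, and Reg3a at 13.20 and 12.95. Germ-free preweaned 2, with no microbes, held 11.36 of Reg3g and 13.14 of Reg3b, more than either colonized preweaned sample. Germ-free preweaned 1 held 7.63 and 9.46, respectively. Reg3a did not share this order: its levels in the germ-free pair, 7.92 and 12.60, were both below those of the colonized preweaned samples. Reg4, a lectin of secretory cells, was 2.91-fold higher in the humanized sample.

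Goblet cell genes were higher as a group. Of 10 compared, 8 were 2-fold or more higher and 0 lower (median 1.46, series-adjusted 1.57), and none was ordered by the division. Clca1, a mucus-processing protease, read 15.17, 15.04 and 15.23 against 12.83, 13.25 and 12.80, which is 4.55-fold. Spink4 was 4.52-fold, Agr2, a chaperone of mucin folding, 2.98-fold and Muc2, the main gel-forming mucin, 3.10-fold higher. Germ-free preweaned levels of Clca1 (15.25 and 14.86) were close to the humanized one, so here too the SPF sample was the one apart. Muc2 was 13.09 and 14.33 in the germ-free pair, and its series-adjusted difference was only 0.40. A single Paneth cell gene of the 3 on the array was compared: Lyz1, the lysozyme of Paneth granules, at 13.39 against 10.11 (9.78-fold), with 12.27 and 13.61 in the germ-free pair.

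Crypt genes were higher in the humanized sample for 7 of 12 members and lower for 0 (median 1.36, series-adjusted 1.505, at bounds 0.77), with germ-free pair differences centred on 0.01. Olfm4, a stem cell secreted protein, read 8.94, 9.05 and 8.87 against 6.08, 6.22 and 5.80 and was at least 2.94-fold higher. Ascl2, the transcription factor of crypt base stem cells, was at least 1.87-fold, Smoc2 at least 6.54-fold and Slc12a2, the basolateral chloride loader of crypt cells, 7.43-fold higher. Lgr5, the defining stem cell receptor and chosen after its values were seen, lay at 8.03 against 6.92 and at 8.89 and 8.05 in the germ-free pair. All 5 of these genes were lower in each of the 3 samples on the far side of the division. Of the 12 crypt genes 10 were ordered by the division, and its part in their differences was not tested.

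Cell cycle genes followed, with 12 of 20 higher and 1 lower (median 1.20, series-adjusted 1.33, at bounds 0.86). Rrm2, the regulatory subunit of ribonucleotide reductase, stood out at 10.41, 10.45 and 10.32 against 7.04, 7.22 and 7.02, at least 7.98-fold, and above both germ-free preweaned levels (7.40 and 8.58). Mki67, the proliferation antigen, was 3.78-fold higher with differences of 1.72 and 1.92 on its probes. Top2a, topoisomerase II alpha, was at least 2.74-fold and Ccna2, cyclin A2, 3.96-fold higher.

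Sterol synthesis showed the most uniform direction of the metabolic lists examined: 22 of 23 compared genes were higher to some degree, 8 of them by 2-fold or more and 0 lower (median 0.88, series-adjusted 0.83). Msmo1, the sterol C4-methyl oxidase, read 12.79, 12.87 and 12.92 against 9.69, 9.82 and 9.78 (8.53-fold). Stard4, a carrier of cholesterol between membranes, was 8.94-fold, Sqle, squalene epoxidase, at least 2.89-fold and Cyp51, lanosterol demethylase, at least 2.25-fold higher. The germ-free preweaned levels of Stard4 (11.96 and 11.82) lay on the humanized side, and those of the postweaned SPF and germ-free samples (8.05 and 9.03) near SPF preweaned, in the order of the division. Only 2 of the 23 genes were so ordered. In the postweaned SPF and germ-free samples Msmo1 (12.06 and 12.67), Sqle (10.48 and 10.23) and Cyp51 (8.76 and 9.81) lay above SPF preweaned.

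Genes of suckling enterocytes had the lowest median of the lists. Of 22 compared genes 16 were 2-fold or more lower and 0 higher in the humanized sample, with a median of -2.32. Meltf, melanotransferrin, an iron-binding surface protein, read 6.49, 6.57 and 6.64 on the humanized arrays, none of which detected it, and 14.57, 14.74 and 14.59 on the SPF arrays, at least 166-fold lower. Mamdc4, also called endotubin, a protein of the endocytic apparatus of suckling enterocytes, was 150-fold lower, at 7.61 against 14.83. These genes divided the germ-free pair in the same way, with Meltf at 14.62 and 6.80 and Mamdc4 at 14.82 and 7.81. In the postweaned SPF and germ-free samples Meltf stood at 6.48 and 5.91 and Mamdc4 at 7.81 and 8.42, near the humanized levels. Clcn5, described below, was high in those samples, at 10.36 and 9.72.

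The series-adjusted median of the list was 0.02, and the humanized sample differed from germ-free preweaned 2 by a median of only -0.18. Folr1, a folate receptor taken up by endocytosis, was at least 10.6-fold lower than in SPF, and it was higher still in germ-free preweaned 1 (13.59 against 10.66), so that its series-adjusted difference was 2.68. Dab2, a clathrin adaptor of apical uptake, was at least 15.8-fold lower and Clcn5, the endosomal chloride exchanger, chosen after its values were seen, 15.5-fold lower, with SPF arrays between 10.22 and 11.68. Lct, the enzyme lactase that digests milk sugar, also chosen after its values were seen, differed little by comparison, at 13.83 against 14.96. An age or a stage of maturation that differs between the samples was not tested, since no age is given for the SPF sample.

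Lysosomal hydrolases stood on both the suckling and the lysosome list. Ctsl, cathepsin L, of the suckling list, was 7.52-fold lower at 11.86 against 14.77, with 15.16 and 11.59 in the germ-free pair. Neu1, lysosomal sialidase, also of that list, read 8.56, 8.63 and 8.66 against 11.56, 11.56 and 11.70 (7.95-fold lower). Of the 29 compared genes of the lysosome list 12 were 2-fold or more lower and 0 higher (median -0.74, series-adjusted 0.66). Npc2, which hands cholesterol out of the lysosome, was 5.61-fold lower. Laptm4a, a lysosomal membrane protein, is a case where 1 array decides: it read 11.57, 11.68 and 5.66 on the humanized and averaged 11.91 on the SPF arrays, and its difference of -2.28 came to -0.29 without the third humanized array.

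Brush border genes were mixed, with 7 of 24 higher and 4 lower (median 0.55, series-adjusted -1.32). Tmprss15, enterokinase, the protease that activates trypsin, read 12.59, 12.65 and 12.65 on the humanized and 6.53, 6.66 and 6.70 on the SPF arrays, at least 37.6-fold. It was 7.93 and 12.25 in the germ-free pair. Sis, sucrase-isomaltase, was 4.69-fold higher (15.27 against 13.04), but germ-free preweaned 1 held only 9.04 and germ-free preweaned 2 15.03, and its series-adjusted difference was -3.76. Mgam, maltase-glucoamylase, and Slc5a1, the sodium-glucose transporter, went the other way, at 13.19 against 14.31 and 12.99 against 14.08. Both were chosen after their values were seen. Naaladl1, a brush border peptidase, was 3.65-fold lower. The SPF preweaned sample thus held suckling transcripts together with sugar-digesting ones: Meltf at 14.63 beside Sis at 13.04, whereas the humanized sample held 6.57 and 15.27.

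Genes of xenobiotic metabolism were higher for 14 of 27 and lower for 0 (median 1.004). The germ-free pair differed more (2.04), and the series-adjusted median was -0.57. Cyp2c29, a cytochrome P450, was 67.4-fold higher at 14.76 against 8.68, yet germ-free preweaned 2 held 14.40 and germ-free preweaned 1 7.75. Gsta4, a glutathione transferase, was 22.3-fold higher, with 8.76 and 12.52 in the pair and a series-adjusted difference of 0.72. Cyp2c55 and Sult1a1, a sulfotransferase, were 2-fold or more above both germ-free samples. Cyp2c55 lay at 12.61 against 8.62 in SPF, and Sult1a1 read 10.74, 10.76 and 10.62 against 6.16, 6.34 and 6.17, at least 9.91-fold, with a series-adjusted difference of 2.84.

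**Figure D4:**
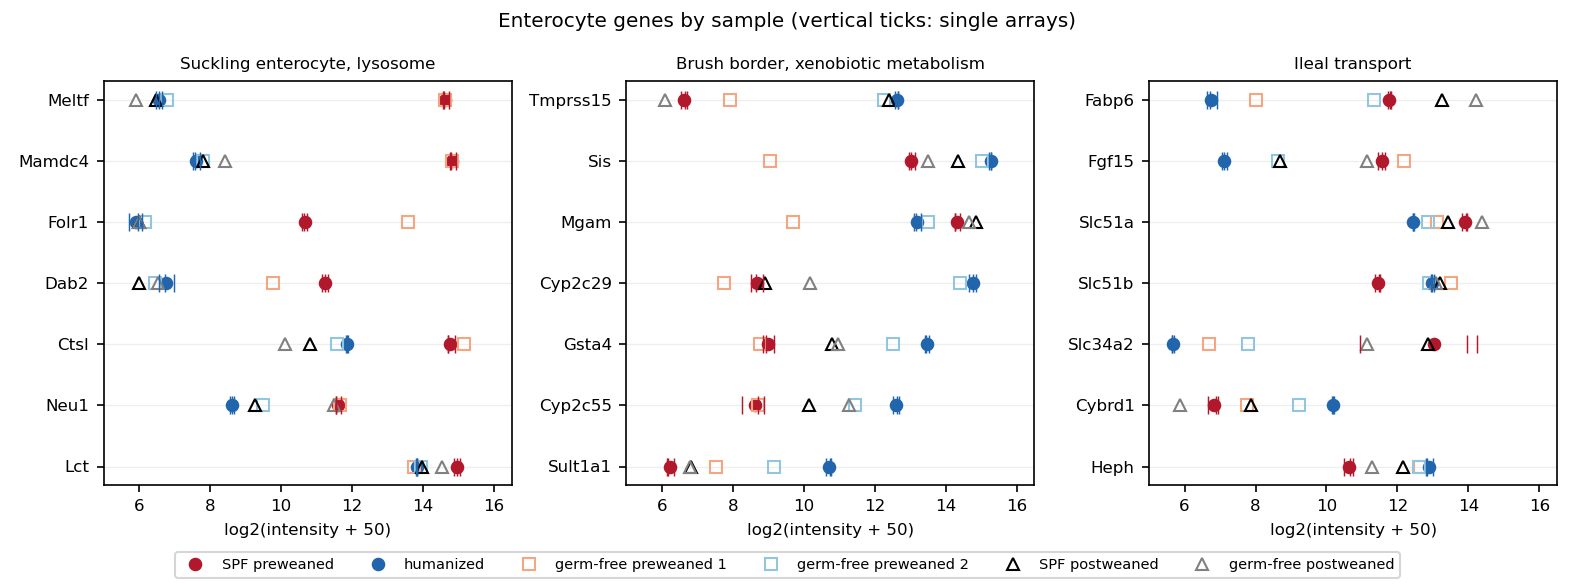
Levels (log2 of intensity plus 50) of suckling enterocyte and lysosomal genes, brush border and xenobiotic genes, and transport genes in the 6 samples, with ticks for single humanized and SPF preweaned arrays. For Meltf and Mamdc4 the SPF preweaned and germ-free preweaned 1 samples coincide (14.63 and 14.62 for Meltf) and the humanized sample lies with germ-free preweaned 2; for Fabp6 and Fgf15 the humanized sample is the lowest.

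Bile acid handling genes of the ileum included 2 at which the humanized sample stood lowest of all 6 samples. Beside Fabp6, at least 22.9-fold lower than in SPF, Fgf15, the hormone by which the ileum restrains bile acid synthesis in the liver, read 7.06, 7.20 and 7.10 against 11.66, 11.57 and 11.46, a 21.7-fold lower level. Germ-free preweaned levels of Fgf15 were 12.19 and 8.62, and its series-adjusted difference was -0.87, under 2-fold. For Fabp6 that value was -8.34. Slc51a and Slc51b, the partners of the basolateral bile acid exporter, went opposite ways, at 12.45 against 13.91 for Slc51a (chosen after its values were seen) and 12.99 against 11.46 for Slc51b. Over the 13 compared genes 3 were higher and 3 lower by 2-fold or more (median -0.48, series-adjusted -0.33), where 16.8% and 15.7% of all compared genes were.

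Transport of minerals was examined next. Slc34a2, the intestinal phosphate transporter, was detected on none of the humanized arrays (5.64, 5.69 and 5.64) and was at least 55.0-fold lower than in SPF, whose arrays read 13.96, 10.93 and 14.23. Its means were 6.69 and 7.79 in germ-free preweaned 1 and 2 and 11.14 and 12.87 in the postweaned germ-free and SPF samples. These means follow the order of the division. The arrays of germ-free preweaned 2 disagreed, however, with an SD of 3.71, so the place of that sample in the order is uncertain. Iron handling genes were 2-fold or more higher for 5 of 15 and lower for 1 (median 0.35, series-adjusted 0.71). Cybrd1, the ferric reductase of the brush border, was at least 6.93-fold higher and Heph, the basolateral ferroxidase, 4.77-fold higher, with 10.19 against 6.83 and 12.89 against 10.63.

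Immediate early and heat shock genes, which cells turn on within minutes of a stimulus or of handling, were lower in the humanized sample. Of 24 compared, 13 were 2-fold or more lower and 1 higher (median -1.19, series-adjusted -2.16, at bounds -0.84). Egr1, a zinc finger transcription factor, read 10.76, 10.86 and 10.82 against 14.91, 14.72 and 14.84, which is 16.1-fold lower. Fosb, a subunit of AP-1, was 20.02-fold lower, and the heat shock proteins Hspa1a and Hspa1b were at least 25.8-fold and 15.8-fold lower, at 6.86 against 11.95 and 8.32 against 12.30. Atf3 and Dusp1, a phosphatase of MAP kinases, both chosen after their values were seen, were at least 7.74-fold and 11.04-fold lower.

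Of these 24 genes 12 were ordered by the division of the samples, against 37% of all compared genes and 1012 of the 1677 that were 2-fold or more lower. Dusp1 lay at 8.58 in the humanized and 7.85 and 8.88 in the germ-free preweaned samples, and at 12.04, 12.20 and 12.15 in the SPF preweaned, SPF postweaned and germ-free postweaned samples. Between the sides of the division 11 of the 24 genes were 2-fold or more apart, among them Nr4a1 in the reverse order, and the other 13 had a median difference of -0.18. Nr4a1, a nuclear receptor that is itself an immediate early gene, went against the rest and was at least 1.20-fold higher in the humanized sample, at 7.66 against 5.65, and was chosen after its values were seen. The sources used here give no handling of the tissue before freezing, and its part in these values was not tested.

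The Dusp1 window (chr17:26508423-26508722, minus strand) is shown as the single one of 21 immediate early windows with an exact cyclic AMP response element, TGACGTCA, in capitals. These letters were found in 1.79% of all windows.
Dusp1: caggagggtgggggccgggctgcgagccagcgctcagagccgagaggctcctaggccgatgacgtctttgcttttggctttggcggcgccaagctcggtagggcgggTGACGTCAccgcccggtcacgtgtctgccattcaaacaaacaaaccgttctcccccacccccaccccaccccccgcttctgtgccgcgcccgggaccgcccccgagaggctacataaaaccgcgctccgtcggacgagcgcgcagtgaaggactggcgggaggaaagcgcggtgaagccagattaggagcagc

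**Figure D5:**
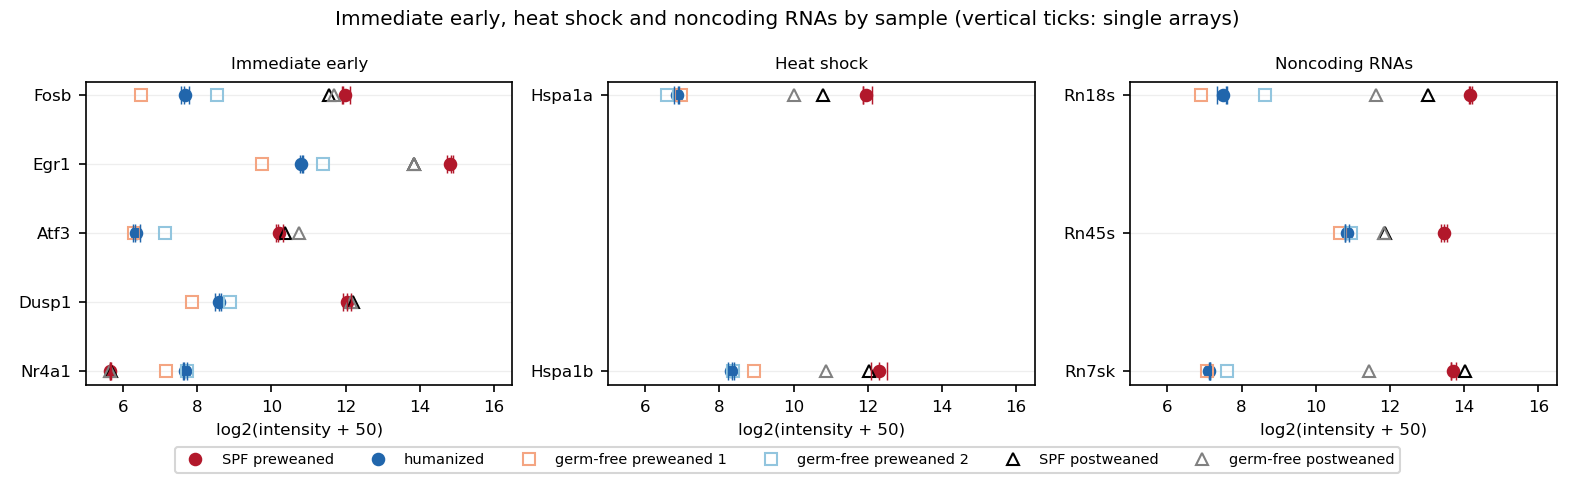
Levels (log2 of intensity plus 50) of immediate early genes, heat shock genes and noncoding RNAs in the 6 samples, with ticks for single humanized and SPF preweaned arrays. For Dusp1 and Rn7sk the humanized and both germ-free preweaned samples lie together at low levels and the other 3 samples lie at least 2-fold higher; Nr4a1 has the reverse order.

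Noncoding and ribosomal precursor RNAs showed the same order. Rn18s, the 18S ribosomal RNA, lay at 7.51 in the humanized and 14.16 in the SPF sample, and Rn7sk, the 7SK RNA that holds back transcription elongation, at 7.13 against 13.69, both chosen after their values were seen. Rn45s, the ribosomal precursor, was 6.18-fold lower, with differences of -2.63 and -2.57 on its probes. Germ-free preweaned levels of Rn18s were 6.90 and 8.62 and postweaned levels 11.61 and 13.03. How such RNAs without a poly(A) tail entered the amplified material was not tested.

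Genes read by several probes rest less on any single probe. Among 841 genes with 2 or more probes above background, 59 (7.02%) were higher and 30 (3.57%) lower by 2-fold or more on every probe. After adjustment for the array series 34 and 21 of them were still 2-fold or more apart in the same direction, and 29 and 16 were ordered by the division. For 234 genes at 2-fold or more with several probes, another probe pointed the other way for 23 of the higher and 32 of the lower ones.

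Among those that were higher, Dag1, dystroglycan, the receptor that ties cells to laminin, read 13.36, 13.41 and 13.33 against 8.41, 8.57 and 8.53 (29.1-fold), with probe differences of 3.58 and 4.86. Adamdec1, a metalloprotease of gut mesenchymal cells and macrophages, was at least 14.98-fold and Cnn3, a calponin, 19.6-fold higher. Mpeg1, the pore-forming protein of macrophages, was at least 4.82-fold higher, Nrp1, a coreceptor for semaphorins and VEGF, at least 3.96-fold, and Ptprb, the endothelial phosphatase VE-PTP, at least 2.74-fold. Nkx2-3, the homeobox factor of gut mesenchyme and endothelium, was at least 4.57-fold and Egln1, the oxygen-sensing prolyl hydroxylase PHD2, at least 3.30-fold higher.

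The genes above were chosen as those still 2-fold or more apart after the series adjustment, and those that follow as ones that were not. Slc5a12, a lactate transporter of the brush border, was 22.0-fold higher, but it was 6.17 and 13.04 in the pair and its series-adjusted difference was -2.40. Upp1, uridine phosphorylase, was 9.50-fold higher with 7.07 and 12.02 in the pair (series-adjusted -1.70). Among lower genes, Pdzk1ip1, a small membrane protein of epithelia, lay at 6.94 against 9.98, with probe differences of -3.57 and -3.03 and a series-adjusted value of -1.37, and Mreg, melanoregulin, a protein of organelle transport, was at least 8.78-fold lower with 9.99 and 7.16 in the pair.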

How the data were processed

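Ileum RNA of 6 C57BL/6J samples was hybridized to 1-colour Phalanx arrays, per the labels' protocols. Each deposited file of a sample holds spot intensity values and detection p-values per array, per the file headers. The deposited value table of the series gives linear, uncentred intensity means of the same arrays, with medians from 33.3 to 97.9 (46.6 and 33.3 for germ-free preweaned 1 and 2, 46.6 for germ-free postweaned, 97.9 and 70.6 for SPF preweaned and postweaned, 46.8 for humanized). The sources used here do not say how background was handled.

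Here 21 arrays were quantile normalized, 50 was added, log2 was taken and arrays were averaged per sample. Of 26423 probes, 22553 had 1 gene symbol, 237 several and 3633 none. A gene was read by its probe with the highest mean. limma 3.58.1 (R 4.3.3) was used to fit a mean per group, with Benjamini-Hochberg adjustment over all tested genes. The code of the fit was run on simulated data with less spread between samples than the germ-free preweaned pair shows. That run does not measure the power of the fit on these data. Tables were handled in python 3.11.15 (pandas 2.3.3, numpy 2.4.6).

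The 3 arrays of a sample were treated as technical repeats, and each p-value rests on the spread between the 2 germ-free preweaned samples, which may be technical. The arrays' number limits the precision. Named genes were up to 15 per direction with agreeing probes that stayed 2-fold apart with the array series as a block, up to 5 per direction that did not, and up to 4 per gene list by size of difference. Not every gene so chosen is printed, and others were chosen after their values were seen. The compared samples and gene lists were chosen with earlier results of these data known. Alternatives covered normalization, offset, filters, probe choice, array series and left-out arrays. The promoter sequences come from RefSeq. Some items are not reported here.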

Additional observations from a re-analysis of the deposited data

How the results depend on the processing

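No gene passed an adjusted p of 0.05 in any limma fit run, with the smallest adjusted p between 0.168 (column sets of germ-free preweaned 1 as 2 samples, 2084 genes at an unadjusted p under 0.05) and 0.869. No paired analysis was possible because each group compared holds 1 sample. The normexp correction was not run because the files hold no separate foreground and background. The counts of 1796 higher and 1677 lower genes came to 972 and 952 with an offset of 200 and to 829 and 777 for genes above background in all 6 samples, where fewer genes were tested. The 59 higher and 30 lower genes with agreeing probes came to 25 and 11 with that offset and to 16 and 14 with that filter. With the array series as a block and either column set of germ-free preweaned 1, the lower ones numbered 53 to 58 (53 with both sets, 57 with the first, 58 with the second), and the higher ones 93 with the first set. Leaving out each array in turn gave 1654 to 1910 higher and 1409 to 1779 lower genes. Scaling to the 75th percentile moved the median of all genes from 0.05 to 0.14.

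Some directions turned, and the cause was not tested. Under the filter for all 6 samples neutrophils had a list median of -0.97 and blood cells one of -0.81. The mast cell median was 0.019 with no filter, and that of enteric neurons and glia, -1.12 over 3 genes, ranged from -1.16 to 0.43 over the left-out arrays (0.43 and 0.37 without SPF array 1 or 3). With the series as a block, listed for both column sets, the first and the second where each turned, the median was -0.24 and -0.71 (first) for epithelial defence, 0.018 and 0.26 (first) for suckling enterocytes, -0.57, -0.78 and -0.44 for xenobiotic metabolism and 0.0037 (second) for pancreas. In the same order, the gene differences were 2.62, 2.70 and 2.54 for Csf1r, 0.63, 1.16 and 0.10 for Camp, -0.28 and -1.07 (first) for Pigr, and -2.26, -2.31 and -2.22 for Reg3g. Cyp2c29 gave -0.57, -0.95 and -0.19, Folr1 2.68, 3.13 and 2.24, Ctsl 0.66, 0.83 and 0.50, and Sis -3.76, -4.75 and -2.78. Acot1 gave 0.92, 0.59 and 1.24, Asl 0.98, 1.14 and 0.81, Slc5a12 -2.40, -2.60 and -2.20, and Upp1 -1.70, -1.80 and -1.60. With the first set alone Muc2 gave -0.33, Meltf 0.027, Laptm4a 0.12 and Tmprss15 -0.020. Leaving out the 307 genes that were 2-fold or more apart by the division, chosen after seeing the data, left 1651 higher and 1515 lower genes.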

Other observations

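Of 20 compared genes of chylomicron assembly and fat uptake, 3 were 2-fold or more higher and 3 lower in the humanized sample (median -0.09), shares close to the 16.8% and 15.7% of all compared genes, and 11 were ordered by the division. Apob, the structural protein of chylomicrons, lay at 13.41 in the humanized and 10.97 in the SPF sample, with 13.86 and 13.52 in the germ-free preweaned pair. Scarb1, a lipoprotein and lipid receptor, was at least 2.99-fold higher. Plin3, a lipid droplet coat protein, was 3.27-fold lower, and Cd36, a fatty acid receptor, gave differences of -1.83 and 0.92 on its 2 probes. Among 26 genes of fatty acid oxidation and PPARalpha targets 8 were lower and 0 higher (median -0.31, series-adjusted -0.24). Acot1 and Acot2, acyl-CoA thioesterases, were 6.94-fold and 6.15-fold lower, at 9.25 against 12.04 and 7.98 against 10.60, and in the germ-free preweaned pair they stood at 11.82 and 8.11 (Acot1) and at 10.37 and 8.00 (Acot2). Cyp4a31, a fatty acid hydroxylase, lay at 7.92 against 10.10, and Ppargc1a, a coactivator of mitochondrial genes, at 8.05 against 10.05. Asl, which makes arginine from argininosuccinate, lay at 9.02 against 11.02 and at 11.94 and 8.96 in the germ-free pair.

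Toll-like receptors and their adaptors were higher for 7 of 21 genes and lower for 5 (median -0.08, series-adjusted 0.012), where 16.8% and 15.7% of all compared genes were. Tlr5, the flagellin receptor, was detected on no humanized array and was at least 2.29-fold lower, while Tlr12, a mouse receptor for parasite profilin, was at least 3.41-fold higher. Tuft cell genes were higher for 4 of 6 and lower for 1 (median 1.65, series-adjusted 0.27, at bounds 1.01). Enteroendocrine genes were higher for 3 of 14 and lower for 2 (median 0.42, series-adjusted 0.66), shares near those of all compared genes. Noncoding transcripts leaned the other way from coding ones. Of 147 long noncoding RNAs 8 were 2-fold or more higher and 48 lower (median -0.62), and of 41 small and other noncoding RNAs 1 was higher and 24 lower (median -1.17), beside 1776 and 1559 of 10369 protein-coding genes. The long noncoding RNAs ordered by the division numbered 68, and the small ones 24.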
